A study of Homo sapiens with 1 sample.

Results

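Open chromatin was described around 8 genes of immune recognition, namely the checkpoint ligand genes CD274, PDCD1LG2 and CD276, the costimulatory ligand gene CD70, the class I light chain gene B2M, and the interferon-responsive regulators NLRC5, CIITA and IRF1. A peak was counted when its summit lay inside the GENCODE record of one of these genes or within 50 kb of either end, on the hg38 build. The rule gave 86 peaks of the 88676 deposited peaks, of which 88615 lay on the primary chromosomes. Because the windows of CD274 and PDCD1LG2 overlap, 4 peaks were counted for both genes, and the 8 genes held 90 pairs of gene and peak. The peaks came from ATAC-seq, an assay that tags accessible DNA with the transposase Tn5, of 786-O cells, an established clear cell renal cell carcinoma line. The cells carried an empty vector and were the control of a study of the chromatin remodelling subunit DPF3a. There was 1 library and no replicate, the library with DPF3a overexpression was not analysed here, and so no test between conditions was made. The cells are the cultured line alone, and according to the study they express hardly any DPF3 of their own.

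T cells recognise a tumour cell through its antigens and its surface ligands. Peptides are shown on MHC class I, which needs the light chain beta-2-microglobulin, or on MHC class II, and ligands such as PD-L1 (CD274), PD-L2 (PDCD1LG2) and B7-H3 (CD276) set the strength of the response, while CD70 engages its receptor CD27. Interferon gamma signals through JAK kinases and STAT factors to IRF1, and NLRC5 and CIITA are transactivators without a DNA-binding domain that switch on the class I and class II genes through a shared complex of RFX, CREB and NF-Y factors. Several of these promoters carry an interferon-stimulated response element (ISRE), which is bound by IRF factors, or a gamma-activated site (GAS), which is bound by STAT dimers. An accessible promoter permits transcription, yet ATAC-seq does not measure RNA or protein.

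The sequences below are those on which the account of the promoters rests. Each is hg38 sequence written 5′ to 3′ on the strand of the gene. The promoters are taken from the 250 bases before the transcription start site (TSS) of the canonical transcript and cut where the annotation places a UTR, whereas the NLRC5 sequence is 30 bases around the TSS that lie within an annotated UTR. Capitals mark matches to an ISRE (GAAA, any 2 bases, GAAA), to a GAS (TTC, any 3 bases, GAA) or to the NF-κB consensus, on either strand.
CD274 promoter, chr9:5450292-5450502, plus strand: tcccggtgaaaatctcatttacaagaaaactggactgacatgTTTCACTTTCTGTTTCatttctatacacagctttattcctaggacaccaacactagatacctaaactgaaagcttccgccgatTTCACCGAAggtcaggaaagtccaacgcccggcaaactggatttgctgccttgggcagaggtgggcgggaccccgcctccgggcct
IRF1 promoter, chr5:132490778-132491023, minus strand: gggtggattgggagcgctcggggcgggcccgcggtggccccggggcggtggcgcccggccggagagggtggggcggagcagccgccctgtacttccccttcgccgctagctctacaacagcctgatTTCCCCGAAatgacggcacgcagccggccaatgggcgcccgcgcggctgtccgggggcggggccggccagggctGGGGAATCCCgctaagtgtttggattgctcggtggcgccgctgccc
B2M promoter, chr15:44711324-44711508, plus strand: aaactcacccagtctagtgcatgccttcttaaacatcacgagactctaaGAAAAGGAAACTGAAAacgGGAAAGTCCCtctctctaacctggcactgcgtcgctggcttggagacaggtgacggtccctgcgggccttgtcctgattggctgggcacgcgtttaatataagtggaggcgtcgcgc
NLRC5 start site, chr16:56989543-56989572, plus strand: cggcttctacTTTCAGTTTCgtgcagagcg

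Among the promoters printed above, an ISRE match was present in the 250 bases upstream of CD274 and of B2M, and one was present in 2.84% of the 20033 protein-coding promoters of the same length. Among the same printed promoters, GAS matches were present in CD274 and IRF1 (5.67% of all promoters) and NF-κB matches in B2M and IRF1 (7.81%). Every promoter printed holds at least 1 of these matches, so the counts among them cannot be read as enrichment over all promoters. The other promoters are not described for these motifs. In CD274, 2 overlapping ISRE matches lay between 208 and 193 bases upstream of the TSS and the GAS match between 125 and 117 bases upstream, all of them inside a peak. The GAS match of IRF1, TTCCCCGAA, lay 124 to 116 bases upstream and only 10 to 18 bases from the summit of the promoter peak. In NLRC5 the ISRE match, TTTCAGTTTC on the strand of the gene, ran from 4 bases before the TSS to position 5 after it and thus outside the upstream window. The matches of B2M lay in no peak. A match describes these letters and not a bound factor.

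Of the 8 genes, 7 had a promoter peak, defined as a summit that lay at most 1 kb before or 100 bp after the TSS of any transcript. Among all 20033 protein-coding genes, 12299 had one (61.4%). The 7 genes also had a peak at the canonical TSS, which was so for 52.2% of protein-coding genes. B2M was the exception, and its position in the reference is described below. The promoter value of a gene is the fold at its highest promoter summit, that is, the pileup of fragments over the genome-wide background. Its 95% interval is the exact Poisson interval of the pileup and covers counting error only.

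The order of the promoters was IRF1 with a fold of 61.8 (95% interval, 51.3 to 73.9), CD274 with 40.2 (31.8 to 50.1), PDCD1LG2 with 35.6 (27.7 to 44.9), CD70 with 18.6 (13.1 to 25.6), CIITA and CD276 with 18.0 each (12.65 to 24.997) and NLRC5 with 13.4 (8.85 to 19.5). The interval of IRF1 did not overlap that of CD274, and the interval of PDCD1LG2 did not overlap that of CD70. CD274 and PDCD1LG2 were not separated by their intervals, nor were the 4 lowest genes from each other. Across the protein-coding genes with a promoter peak the median of the highest promoter fold was 25.8 (interquartile range, 15.97 to 39.2). IRF1 was above 93.7% of these genes, CD274 level with or above 76.5% and PDCD1LG2 above 68.6%. CD70 was above 31.0%, CIITA and CD276 were each level with or above 31.0%, and NLRC5 was level with or above 18.5%. The roles were interleaved in this order. The checkpoint ligands spanned 18.0 to 40.2 and the interferon-responsive regulators spanned 13.4 to 61.8, with CD70 inside both ranges.

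**Figure D1:**
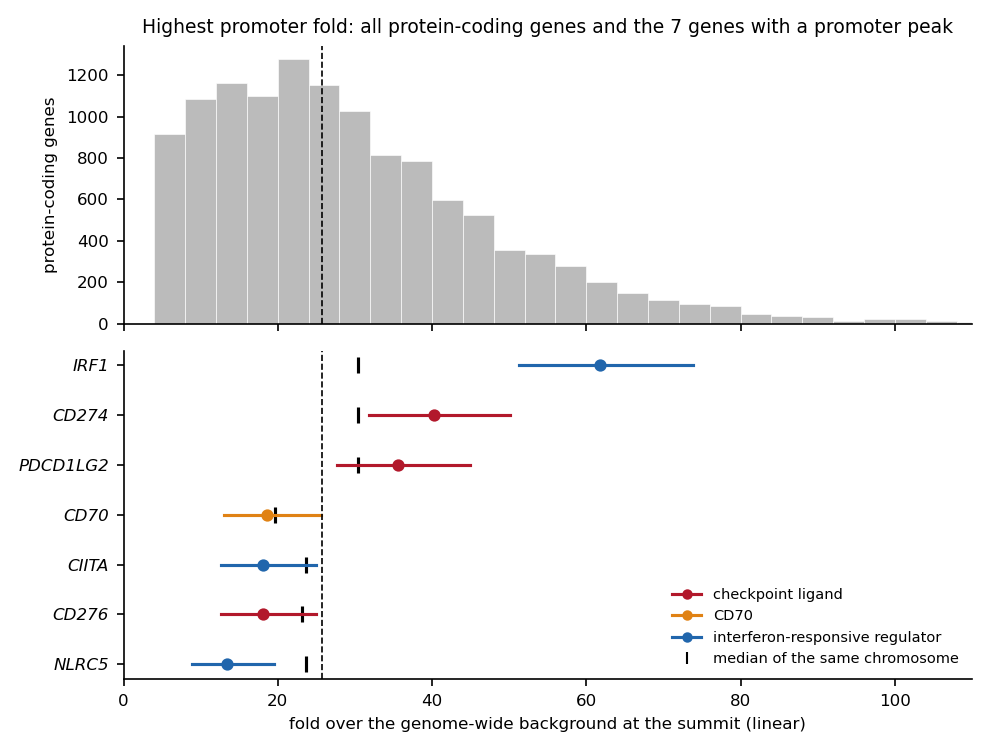
Highest promoter fold of all protein-coding genes with a promoter peak (top, number of genes per bin of 4 fold units) and of the 7 genes (bottom, points with exact Poisson 95% intervals), in 1 library on a linear axis. The dashed line is the median of all genes, 25.8, and the short black bars are the medians of the same chromosome; IRF1, CD274 and PDCD1LG2 lie to the right of the dashed line and the other 4 genes to the left.

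Folds refer to a single genome-wide background and therefore also follow the number of copies of a region, which was not measured. The median promoter fold was 30.4 on chromosomes 5 and 9, 23.7 on chromosome 16, 23.2 on chromosome 15 and 19.6 on chromosome 19. Within its own chromosome IRF1 was above 86.8% of the genes with a promoter peak, PDCD1LG2 above 58.8% and CD70 above 46.9%. CD274 was level with or above 68.2%, CD276 36.4%, CIITA 33.4% and NLRC5 18.2%. The order of the first 3 genes and the last place of NLRC5 were the same on this scale, and CD70 moved closest to the middle of its chromosome. Other promoters within 5 Mb of IRF1 had a median fold of 34.8 (52 genes), and those within 5 Mb of CD274 one of 30.9 (23 genes).

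The 8 windows together spanned 1119 kb after merging and held 76.9 peaks per Mb (95% interval, 61.5 to 94.9), compared with 30.2 per Mb over the sequenced genome. Windows of the same kind around all protein-coding genes had a median of 45.1 per Mb (interquartile range, 23.2 to 73.6), since genes lie in peak-rich sequence. Single genes varied widely around these values. IRF1 had 24 peaks (143 per Mb, 91.4 to 212), CIITA 16 (90.5, 51.7 to 147), CD274 13 (108, 57.7 to 185) and CD70 13 (108, 57.2 to 184). NLRC5 had 9 (46.4, 21.2 to 88.0), PDCD1LG2 7 (43.5, 17.5 to 89.7), CD276 7 (53.6, 21.6 to 110) and B2M 1 (9.30, 0.236 to 51.8). The density of IRF1 exceeded that of 97.6% of protein-coding windows, and those of CD274 and CD70 exceeded 91.7% and 91.4%. PDCD1LG2, CD276 and NLRC5 were between 48.4% and 58.8%, that is, near the middle of all genes.

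**Figure D2:**
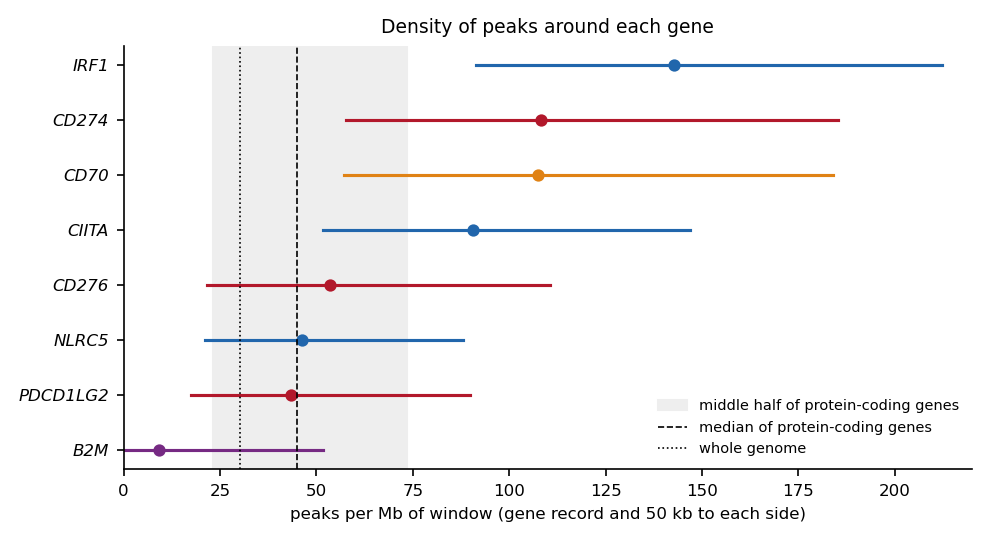
Peaks per Mb in the window of each gene (points, with exact Poisson 95% intervals as bars), colored by role as in the plot of promoter folds, with B2M in purple. The shaded band is the interquartile range of all protein-coding windows, the dashed line their median of 45.1 per Mb and the dotted line the whole genome at 30.2 per Mb; IRF1 alone has an interval wholly above the band.

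By role, the 3 checkpoint ligands had 23 distinct peaks (65.5 per Mb, 41.5 to 98.2) with a median fold of 8.76. CD70 had 13 peaks (108 per Mb, 57.2 to 184) with a median fold of 15.97, and the 3 interferon-responsive regulators had 49 peaks (90.9 per Mb, 67.2 to 120) with a median fold of 14.4. The density intervals of the roles overlapped. Peaks with a fold of 20 or more numbered 5 of 23 at the checkpoint ligands, 3 of 13 at CD70 and 19 of 49 at the regulators, of which 12 were in the IRF1 window. For all 86 peaks the median fold was 14.4 (interquartile range, 7.73 to 24.1), against 10.8 (6.70 to 20.6) for all peaks on the primary chromosomes, and 32.6% had a fold of 20 or more, against 26.02%. A pileup under 15 was found at 23 of the 86 peaks (26.7%), against 35.7% of all peaks.

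Of the 86 summits, 11 lay in a promoter of one of the 8 genes, 10 in the promoter of another gene, 23 elsewhere in the records of the 8 genes, 20 in the body of another gene and 22 outside genes. Each summit was given the first of these places that applied. A summit inside the CIITA record at the promoter of DEXI is thus counted under the promoter of another gene. CD70 had the largest number outside genes, 10 of its 13 peaks. CD276 had 3 of 7, and IRF1 had none of 24.

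**Figure D3:**
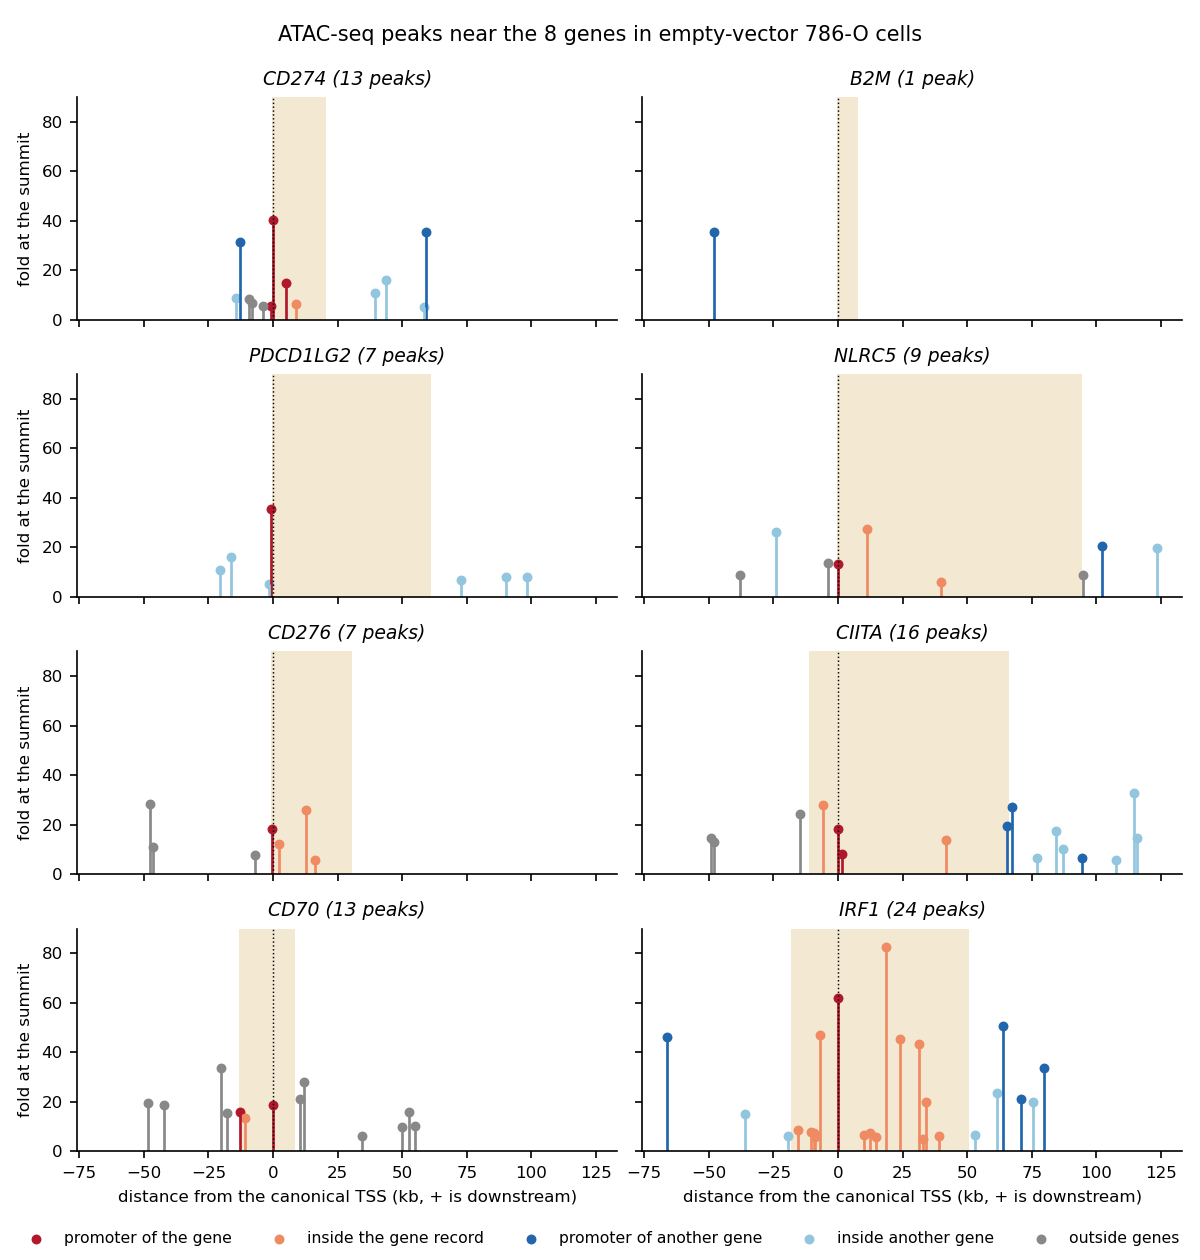
Each peak near the 8 genes, with the distance of its summit from the canonical TSS in kb on the horizontal axis (positive values are downstream on the strand of the gene), its fold on the vertical axis, and its place by color. The shaded block is the GENCODE record. IRF1 carries the tallest peaks on both sides of its TSS, PDCD1LG2 has no deposited peak in its record, and B2M has a single peak near the edge of its window.

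CD274 encodes PD-L1, which restrains T cells through PD-1. Its record is on the plus strand at chr9:5450503-5470566. The strongest of its 13 peaks covered the canonical start (chr9:5450187-5451165), with the summit 65 bp upstream and a fold of 40.2. A weaker peak had its summit 784 bp upstream, at a fold of 5.67 (2.99 to 9.99). Another, at a fold of 14.9 (10.1 to 21.4), lay 4.89 kb downstream in an intron of the canonical transcript and 684 bp before the start of another CD274 transcript, and its summit window held an AP-1 match. The only further peak inside the gene had a fold of 6.18 (3.34 to 10.7). The neighbouring promoter of PLGRKT, 12.7 kb upstream, had a fold of 31.4 (24.1 to 40.3). The 4 peaks that CD274 shares with PDCD1LG2 lay between both genes.

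PDCD1LG2, which encodes the other PD-1 ligand PD-L2, lies downstream of CD274 at chr9:5510531-5571282 on the plus strand. Its promoter peak (chr9:5509208-5510530, fold 35.6) was 1323 bp wide. The summit was 744 bp upstream, and the interval ended at the base before the annotated start. No deposited peak lay inside the record of 60.8 kb. A count of 0 allows up to 49.4 deposited peaks per Mb there. That limit takes 3 counts over the record and is not the exact Poisson interval used elsewhere. The peaks before and after the record carry the numbers 103029 and 103033, so called peaks between them were removed from the list. Their places are not known, and the record may have held some of them. The other 6 peaks of its window had folds from 5.15 to 15.97 and all lay in the record of a long unnamed gene that spans the locus. The PD-1 ligand genes thus had promoter folds that their intervals did not separate. In the filtered list CD274 had 2 summits inside its record and PDCD1LG2 had 0. A number was also missing inside CD274, between 103021 and 103023, so these counts describe the filtered list only.

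CD276 encodes B7-H3, a ligand of the same family that is found on many tumours. The gene is at chr15:73683966-73714514 on the plus strand. The promoter peak (chr15:73683587-73685282, fold 18.0) was broad, at 1696 bp, with its summit 495 bp upstream. Inside the gene, 3 peaks followed at 2.49 kb, 12.8 kb and 16.1 kb from the start, with folds of 12.4 (8.03 to 18.3), 25.8 (19.2 to 33.9) and 5.67 (2.99 to 9.99). The strongest of the 7 peaks was outside genes, 47.8 kb upstream (chr15:73636378-73636907, fold 28.3, 21.4 to 36.8). Its interval overlapped that of the promoter, whose upper bound was 24.997.

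CD70 encodes a TNF family ligand that is normally restricted to activated lymphocytes and antigen-presenting cells. It is on the minus strand at chr19:6583183-6604103. A peak sat on the canonical TSS (chr19:6590532-6591429, summit 4 bp upstream, fold 18.6). The start of a longer transcript, 13.0 kb upstream, had a peak of its own with a fold of 15.97 (10.9 to 22.6) and 2 GAS matches around its summit. A further peak inside the long record had a fold of 13.4 (8.85 to 19.5). The highest folds lay outside the gene on both sides. The strongest was 19.99 kb upstream (chr19:6610816-6611969, fold 33.5, 25.9 to 42.6), followed by one 12.0 kb downstream of the TSS (chr19:6578753-6579438, fold 27.8, 21.0 to 36.2) and one 10.6 kb downstream (fold 21.1, 15.2 to 28.6). The interval of the strongest peak did not overlap that of the CD70 promoter, whose upper bound was 25.6.

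AP-1 factors bind TGANTCA, in which N is any base. Such a match lay within 50 bp of the strongest summit of 2 of the 8 windows, those of CD70 and CIITA, beside 19.97% of all peaks. These sites and the strongest one near IRF1, which had no match, are printed here as the bases up to 50 bp to each side of the summit on the strand of the gene, with matches to AP-1, ISRE, GAS and NF-κB in capitals.
CD70 upstream site, chr19:6611088-6611188, minus strand: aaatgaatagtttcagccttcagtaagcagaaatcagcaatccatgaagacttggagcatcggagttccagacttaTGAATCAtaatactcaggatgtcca
CIITA downstream site, chr16:10991846-10991946, plus strand: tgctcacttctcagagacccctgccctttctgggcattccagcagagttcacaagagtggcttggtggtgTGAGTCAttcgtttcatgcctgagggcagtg
IRF1 downstream site, chr5:132472096-132472196, minus strand: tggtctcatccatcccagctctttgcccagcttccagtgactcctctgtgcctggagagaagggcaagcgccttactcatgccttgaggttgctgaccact

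NLRC5 drives the MHC class I genes. It is a gene of 94.0 kb at chr16:56989485-57083531 on the plus strand. Its promoter peak (chr16:56989238-56989989) was centred on the start, with the summit 11 bp downstream and a fold of 13.4, the lowest promoter value of the 7 genes. The strongest of its 9 peaks lay in the gene, 11.1 kb downstream (chr16:57000269-57001028, fold 27.3, 20.5 to 35.7), and the lower bound of that peak was above the upper bound of the promoter, 19.5. A second peak in the gene had a fold of 6.18 (3.34 to 10.7). In the body of CETP upstream, another peak had a fold of 26.3 (19.6 to 34.5).

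CIITA drives the MHC class II genes and has several alternative promoters that are used by different cell types. The record runs on the plus strand of chromosome 16 (chr16:10866222-10943021). One promoter peak lay at the canonical start (chr16:10876849-10877549, summit 16 bp downstream, fold 18.0). A second, weaker one lay 1.57 kb downstream, where another transcript begins (chr16:10878432-10879203, fold 8.24, 4.84 to 13.3), with its summit 199 bp before that start. The intervals of both promoters overlapped slightly, from 12.6 to 13.3. Upstream of the canonical start but inside the record, a peak of higher fold lay at 5.89 kb (chr16:10870539-10872000, fold 27.8, 21.0 to 36.2). Another body peak, 41.7 kb downstream, had a fold of 13.9 (9.27 to 20.1). A further peak inside the record, 65.3 kb downstream, lay at the promoter of DEXI and had a fold of 19.6 (13.9 to 26.8). The strongest of the 16 peaks, at a fold of 32.98 (25.5 to 42.0), lay 115 kb downstream of the start and inside CLEC16A, the next gene.

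IRF1 encodes the transcription factor that links interferon gamma to NLRC5, CIITA and CD274. Its window had the most peaks and the highest fold of the 8. The canonical transcript is short, 9.165 kb, on the minus strand at chr5:132481609-132490773, whereas the GENCODE record, which joins 50 transcripts with 28 start sites, extends over 68.3 kb (chr5:132440440-132508719) and shares sequence with the antisense gene IRF1-AS1 and with a long unnamed gene. The promoter peak (chr5:132489661-132491679, fold 61.8) was 2019 bp wide, with the summit 134 bp upstream. No summit of the deposited list lay within the canonical transcript, and 15 lay within the long record. The peaks at both ends of that transcript reached into it. Their numbers, 80537 and 80540, show that peaks called between them, inside the transcript, were removed from the list. The strongest was 18.6 kb downstream of the canonical start (chr5:132471254-132472600, fold 82.4, 70.2 to 96.2). It was above 99.55% of all deposited peaks and lay 897 bp downstream of the start of another IRF1 transcript, so it was not a promoter peak under the rule used. Further summits lay 23.8 kb downstream (fold 45.3, 36.4 to 55.8), 31.5 kb downstream (fold 43.3, 34.6 to 53.5) and 7.09 kb upstream (fold 46.9, 37.8 to 57.5). Their intervals overlapped each other and not that of the strongest peak. The other 10 peaks inside the record and outside its promoters had folds from 5.15 to 20.1. Of the 24 peaks, 7 were at or above the 90th percentile of all peaks, a fold of 35.6. These included promoter peaks of neighbours, at LINC02863 (fold 50.5, 64.0 kb downstream) and at IL5 and RAD50 (fold 46.4, 66.3 kb upstream). The other 7 genes had 3 such peaks among them after shared peaks were counted once, including the SPG11 promoter in the B2M window. With windows drawn around the canonical transcripts in place of the records, 78 peaks lay near the 8 genes.

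B2M, the class I light chain gene (chr15:44711358-44718851, plus strand), had no promoter peak and no peak inside its record. The only peak of its window was at the promoter of SPG11, 47.8 kb upstream, with a fold of 35.6 (27.7 to 44.9). B2M lies in a segment of 236 kb (chr15:44676665-44913043) that has an alternative copy in hg38, and no peak overlapped that segment, although it holds the start sites of 3 protein-coding genes. The peak-free stretch around it was 359 kb long, and no peak number was missing between the peaks at its ends. Of 20 tiles of 150 bases across the B2M promoter, 17 were found letter for letter on an alternative sequence, compared with 0 of 20 for each of the other 7 genes. Reads that match both copies equally receive a low mapping quality, and the authors removed reads of low mapping quality. Among the 761 protein-coding genes whose canonical TSS has an alternative copy, 11 had a promoter peak (1.45%), compared with 63.8% of the 19272 other genes. Accessibility and the effect of the alternative copy cannot be told apart at B2M, so its lack of a peak is no measure of its accessibility.

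The same holds for most genes that NLRC5 and CIITA act on. The MHC segment of chromosome 6 (chr6:28510126-33480473) is covered by 8 alternative sequences. It held 4 peaks over 4970 kb, or 0.805 per Mb, a promoter peak at 1 of its 183 protein-coding genes, and 0 peaks on the alternative sequences themselves. Of the 18 genes of the class I list (heavy chains, peptide transport and loading, proteasome and trimming), 7 had a promoter peak, and the other 11 all had an alternative copy. Outside duplicated sequence the count was 7 of 7 (exact binomial 95% interval, 59.0 to 100%). That interval includes the 63.8% of all protein-coding genes without an alternative copy. The highest folds were those of the chaperones CANX (69.0, 57.9 to 81.7) and CALR (41.7, 33.2 to 51.8), which fold the heavy chain, and of the immunoproteasome subunit PSMB10 (47.4, 38.3 to 58.1), whose peak also lies in the promoter of an unnamed neighbour. The PSMB10 peak did not lie at the canonical TSS, and with canonical starts alone 6 class I genes had a promoter peak. In the class II list 2 of 12 had a promoter peak, namely HLA-DQB1 (9.28, 5.62 to 14.5), which lies in the duplicated segment, and the lysosomal protease gene LGMN (20.1, 14.4 to 27.4). Outside duplicated sequence the count was 1 of 4 (0.631 to 80.6%), an interval that also includes 63.8%. The other genes of that list outside duplicated sequence, named after their values were seen, were CD74, CTSS and IFI30, and none of them had a promoter peak. The nearest summit to the canonical start of CD74, the invariant chain gene, was 267 bp downstream of it and thus past the end of the promoter.

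The factors that bring NLRC5 and CIITA to DNA lie outside duplicated sequence. Of the 8 genes of this list (RFX, NF-Y, CREB1 and ATF1), 7 had a promoter peak (87.5%, 47.3 to 99.7), with a median fold of 32.98. CREB1 (63.9), RFX5 (50.5) and NFYB (34.5) were highest, and NFYA had its nearest summit 145 bp downstream of the canonical start and so no promoter peak. Of the 16 genes of interferon signalling (receptors, kinases, STATs, IRFs and inhibitors), 15 had one (93.8%, 69.8 to 99.8), with a median fold of 30.4. STAT2 (60.3, 49.9 to 72.2) and STAT3 (50.0, 40.6 to 60.9) were highest, and IFNGR2, a receptor chain of interferon gamma, had its nearest summit 745 bp downstream. The interval of the first list includes the 63.8% of all protein-coding genes without an alternative copy, and that of the second lies above it. With canonical starts alone the counts were 5 of 8 and 13 of 16, beside 52.2% of all protein-coding genes. The lists were chosen with earlier results of these data known, and enrichment was not tested.

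**Figure D4:**
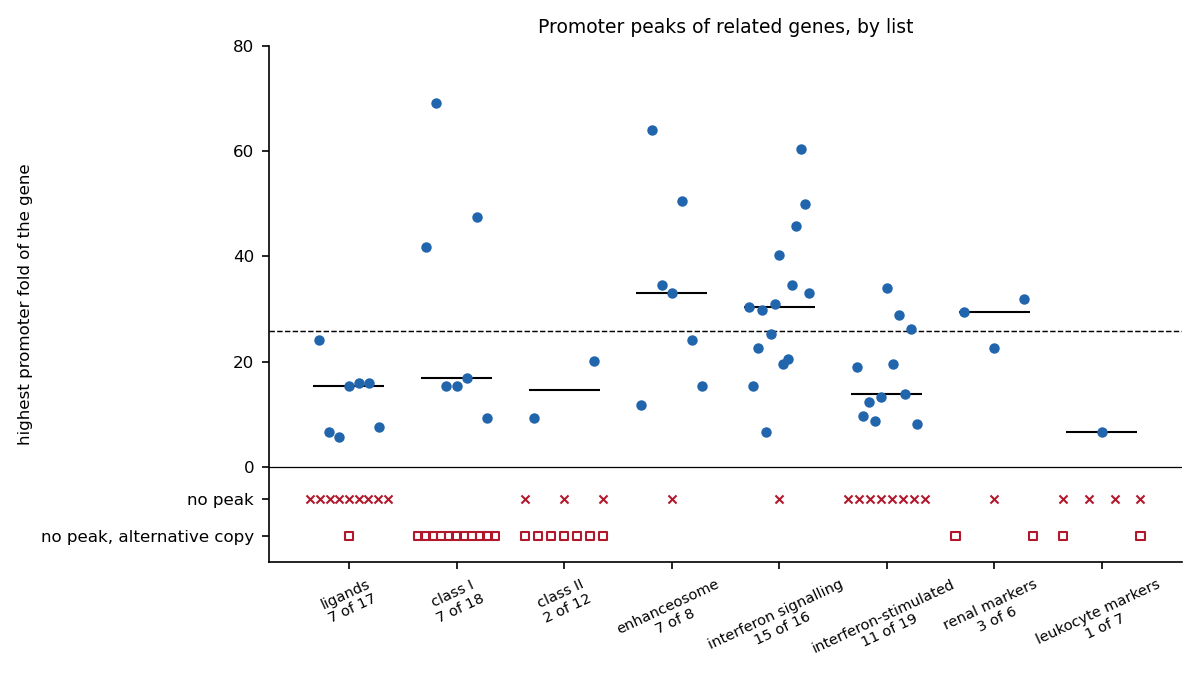
Highest promoter fold of each gene of the lists (blue points, linear axis, with the list median as a black line) in 1 library. Crosses are genes without a promoter peak and open squares those without one whose canonical TSS has an alternative copy in hg38; the dashed line is the median of all protein-coding genes, 25.8, and all open squares of the class I list are among its 11 genes without a peak.

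Of 19 genes that interferons induce, 11 had a promoter peak (57.9%, 33.5 to 79.7), a share near the 63.8% of all protein-coding genes without an alternative copy, with a median fold of 13.9, lower than the 25.8 of all protein-coding genes with one. IFIT2 (34.0), ISG15 (28.9) and WARS1 (26.3) were highest. Their peaks also lie in the promoters of an unnamed neighbour, of HES4 and of WDR25. The WARS1 peak did not lie at the canonical TSS. With canonical starts alone 8 genes of this list had a promoter peak, beside 52.2% of all protein-coding genes. No promoter peak was found for the T-cell chemokine genes CXCL9, CXCL10 and CXCL11, for the tryptophan-degrading enzyme IDO1, or for GBP4, GBP5, OAS1 and IFI44L. The nearest summits to the 3 chemokine genes were 16.5 to 32.5 kb away. Among the other immune ligands, 7 of 17 had a promoter peak (41.2%, 18.4 to 67.1, an interval that includes the 61.4% of all protein-coding genes), with a median fold of 15.5. The highest were the macrophage-restraining ligand CD47 (24.2, 17.9 to 32.1), TNFSF9 and PVR (15.97 each). The folds of CD274 and PDCD1LG2, at 40.2 and 35.6, were above those of all 7, and their intervals overlapped that of CD47.

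Markers of renal epithelium and of leukocytes were also looked up. A promoter peak was found at 3 of 6 renal and 1 of 7 leukocyte markers. Outside duplicated sequence the counts were 3 of 4 (19.4 to 99.4%) and 1 of 5 (0.505 to 71.6%). Both intervals include the 63.8% of all protein-coding genes without an alternative copy, so these markers cannot check the label of the cells. Promoter peaks were present at the renal epithelial genes PAX8 (31.9), PAX2 (22.7) and CDH16 (29.4). LHX1, which has an alternative copy, had none, nor did CDH6, whose nearest summit lay 1.38 kb downstream. Of the leukocyte genes, CD14 had a weak promoter peak (6.70, 3.71 to 11.3), and PTPRC, CD3E, SPI1, CD27 and PDCD1 had none, with alternative copies of PTPRC and PDCD1. CD27 and PDCD1 encode the receptors of CD70 and of both PD-1 ligands.

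Motifs were counted within 50 bp of each summit, and for all 8 motifs the interval of the share at the 86 peaks included the share among all peaks. AP-1 was the most frequent, at 18 of 86 peaks (20.9%, 12.9 to 31.0) against 19.97% of all 88615 peaks. The core of the hypoxia response element (ACGTG or GCGTG) was at 15.1% (8.30 to 24.5) against 15.96%, RUNX (TGTGGT) at 11.6% (5.72 to 20.3) against 12.6%, CCAAT at 10.5% (4.90 to 18.9) against 12.8% and SP/KLF (GGGCGG) at 8.14% (3.34 to 16.1) against 8.45%. A GAS match was at 4 peaks (4.65%, 1.28 to 11.5) against 3.08%, an ISRE at 2 (2.33%, 0.283 to 8.15) against 1.27% and NF-κB at 2 (2.33%, 0.283 to 8.15) against 2.29%. Both ISRE matches were near interferon-responsive regulators, whose windows held 49 of the 86 peaks. One was at the NLRC5 promoter. The other was at a peak 79.8 kb downstream of the IRF1 start, in a promoter of IRF1-AS1. AP-1 was at 5 of the 24 peaks near IRF1, 4 of the 16 near CIITA and 3 of the 13 near CD70. These shares are near the 19.97% of all peaks and follow the number of peaks in each window. The ISRE and GAS matches of the CD274 promoter lay more than 50 bp from their summits and were not among the matches counted here.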

How the data were processed

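ATAC-seq of 1 library of empty-vector 786-O cells was used. According to the methods and the processing notes, the authors used fastp for trimming and Bowtie2 2.3.4.3 for alignment to hg38, removed mitochondrial, duplicate and low-quality alignments, and called peaks with MACS2 2.2.6 against a genome-wide background. A Tn5 shift is not stated, so summits may lie some bases off. The deposited ratio gives the fold of a summit's pileup over background. The deposited −log10 p-value and −log10 q-value come from the peak caller, and the deposited score restates the latter, multiplied by 10 and without decimals (lowest score, 52). Each fold equalled the pileup plus 1 over the background (0.941) plus 1, which gave whole pileups from 9 to 300 to within 1.69e-05. Gaps in the peak numbers show that the list had been filtered after numbering. Total reads are unknown. Summits mark maxima, which biases their pileups upward. The deposited names carry a wild-type tag, and the label (empty vector) was used.

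Genes came from GENCODE release 44 and sequences from hg38. A promoter ran 1 kb upstream to 100 bp downstream of a TSS. Windows ran 50 kb to both sides of the gene record. Intervals are exact Poisson (pileups and densities) or Clopper-Pearson (shares). Both strands were searched for motifs up to 50 bp from summits. Alternative copies were found by aligning the 261 alternative sequences with minimap2 2.31 (minimum 10 kb, maximum divergence 5%). Software was pysam 0.24.0, scipy 1.17.1, pandas 2.3.3 and numpy 2.4.6 under Python 3.11.15. Functions were tested on simulated data. The genes and lists were chosen with earlier results of these data known. Named were the 8 genes with their promoter and body peaks, the strongest peak of each window, the 3 highest genes of each list and its genes without a promoter peak (up to 8, otherwise their count), and all markers. Some listed genes and some promoter sequences that this rule would name are not reported here, and counts over the lists include those genes. Alternatives were other window sizes, promoter definitions, score minimums and motif windows.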

Additional observations from a re-analysis of the deposited data

How the results depend on the processing

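No paired analysis was possible because only 1 library was used. Of 148 alternative values, 133 stayed within their interval or within 1.5 times the count and 15 moved. Some could not move, since a score minimum leaves the highest fold unchanged while its peak remains. The B2M window lost its only peak at 20 kb, so its strongest fold there is not among these values. A score above 100 gave 58.1 peaks per Mb near the 8 genes and 0 leukocyte markers with a promoter peak. A score above 200 gave 50 peaks and 44.7 per Mb, and promoter peaks at 4 immune ligands, 1 class II gene and 0 leukocyte markers. Windows of 100 kb gave a strongest fold of 37.6 for CD276 and 38.1 for NLRC5. Promoters of 1 kb or 2.5 kb to both sides gave IRF1 a fold of 82.4, since its strongest peak lies 897 bp past another start site, and 2.5 kb gave CD276 25.8. Motif windows of 100 bp to each side raised AP-1 to 36.05% and the hypoxia core to 27.9%, since they hold more bases. Chosen after seeing the data, leaving out genes with an alternative copy gave 1 class II gene, leaving out the B2M window gave 84.0 peaks per Mb, and windows around canonical transcripts gave 78 peaks. The number of genes with a promoter peak was 7 under every alternative tried. Low pileups limit the weaker peaks, and a single library shows no spread between cultures.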
